A study of Mus musculus with 12 samples.

Results

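The genes described here belong to the repackaging of DNA in spermatids: the protamines Prm1 and Prm2 with Prm3 of the same cluster, the transition proteins Tnp1 and Tnp2, and Hils1 and H1fnt, both linker histones made in spermatids. They were chosen by symbol and are 7 of the 37675 genes listed in every library. All 7 were among the 16860 genes with enough counts to be tested. The filter keeps a gene that is counted in the mice of a single age, such as the last. When only the mice of the ages compared were fitted, 2 of the 7 passed it for PND 7/14, 3 for PND 14/17 and 5 for PND 17/21.

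Whole testes of C57BL/6NHsd mice were collected on postnatal day (PND) 7, 14, 17, 21 and 28, with 2 mice at each age. Total RNA was freed of ribosomal RNA and read on a SOLiD instrument, and the authors counted the uniquely mapped reads of every Ensembl gene. The 12 libraries stand for 10 mice, because each mouse of PND 7 was split over 2 barcodes that were added together here. In whole testis, more spermatids and more RNA per spermatid cannot be told apart.

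In spermatids, histones are first replaced by transition proteins and these in turn by protamines, arginine-rich proteins that condense the sperm nucleus. Transcription stops as the chromatin is compacted, so the mRNAs of transition proteins and protamines are made in round spermatids, held without translation and translated later. H1fnt marks one cap of the round spermatid nucleus and Hils1 is found in elongating spermatids.

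Depth ranged from 3994026 to 13559548 counts per mouse, and PND 17 mouse 1 was sequenced 3.39 times as deeply as PND 17 mouse 2. A count of 0 allows up to 3 reads, which corresponds to 0.209 to 0.726 CPM in a single mouse (CPM being counts divided by library size, here scaled with TMM). Intervals and such limits cover counting error only. Sertoli cell markers had summed levels of 983 to 2237 CPM before PND 28 and of 516 and 677 CPM at PND 28. The 8 round spermatid markers summed to between 2.90 and 43.9 CPM up to PND 17, to 277 and 203 CPM at PND 21 and to 1450 and 1354 CPM at PND 28. All 9 Sertoli markers found in the files, Sox9 and Amh among them, were counted in every mouse, as the label testis would have it.

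PND 14 mouse 1 stood apart from the other young mice. All 7 genes were counted in it at 1.96% to 7.42% of their mean PND 28 CPM, whereas in PND 14 mouse 2 none reached more than 0.190%. The same held beyond these 7 genes. Of 84 other genes with at least 50 CPM at PND 28 and under 5% of that level in every PND 7, PND 17 and PND 21 mouse, 84 were higher in PND 14 mouse 1 than in PND 14 mouse 2. Their median was 3.20% of the PND 28 mean in mouse 1, with quartiles of 2.52% and 3.82%, and 0.185% in mouse 2. The summed spermatocyte markers were lower in PND 14 mouse 1, at 1688 CPM, than in PND 14 mouse 2, at 2664 CPM. Its summed Sertoli markers, at 1964 CPM, were above the 1087 CPM of mouse 2, and its round spermatid markers summed to 43.9 CPM beside 19.6 CPM. Clu alone made up much of both Sertoli sums, with 1153 CPM in mouse 1 and 441 CPM in mouse 2. Of the other Sertoli markers Gata4 was lower in mouse 1 (58.0 and 61.9 CPM), Wt1 was nearly equal (107 and 106 CPM) and the rest were higher. What set this library apart was not tested. The calls of the 7 genes are given with and without it, as are the counts of the gene lists that changed when it was left out.

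Prm1, Prm2, Prm3 and Tnp2 lie side by side on the minus strand of chromosome 16 (coordinates in mm9, as in the deposited annotation). Tnp2 (ENSMUSG00000043050) occupies chr16:10788029-10788748 and has 2 exons. It is followed by Prm3 (ENSMUSG00000050058) with a single exon at chr16:10790600-10791006, by Prm2 (ENSMUSG00000038015) with 2 exons at chr16:10791476-10792198, and by Prm1 (ENSMUSG00000022501) with 2 exons at chr16:10796419-10796979. The 4 genes span 8951 bases, with gaps of 1851, 469 and 4220 bases between them. The other 3 genes lie apart. Tnp1 (ENSMUSG00000026182) has 2 exons on the minus strand at chr1:73061657-73062473, H1fnt (ENSMUSG00000048077) a single exon on the minus strand at chr15:98086413-98087738, and Hils1 (ENSMUSG00000038994) a single exon on the plus strand at chr11:94828975-94829770. Hils1 lies within the span of Sgca, which is on the opposite strand. Whether the authors' counting used strand is not given in the sources used here, so reads of the 2 genes cannot be told apart where their exons overlap. Sgca itself stayed at a mean of 11.1 CPM or less.

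The promoter sequences are shown because these genes rise together late in the first wave and include a cluster with a shared chromosomal position. RefSeq windows (GRCm38.p6) from 250 bases before to 50 bases after the start were found for 7 of 7 genes, and each matched the mm9 genome at a single place. The last 120 bases before the RefSeq start are printed 5′ to 3′ on the gene's own strand. Capitals mark matches to the motif TGACG, the motif TATAAA, the motif CCAAT, the pattern TGANNTCA, and the letters TATA where they lie between 20 and 40 bases before the start.
Prm1: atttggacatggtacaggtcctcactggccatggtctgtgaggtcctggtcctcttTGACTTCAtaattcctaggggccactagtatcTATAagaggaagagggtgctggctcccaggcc
Prm2: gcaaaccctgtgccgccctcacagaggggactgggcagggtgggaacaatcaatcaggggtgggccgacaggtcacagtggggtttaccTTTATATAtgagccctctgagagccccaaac
Prm3: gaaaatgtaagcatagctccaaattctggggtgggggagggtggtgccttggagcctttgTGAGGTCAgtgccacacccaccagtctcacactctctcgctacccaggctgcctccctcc
Tnp1: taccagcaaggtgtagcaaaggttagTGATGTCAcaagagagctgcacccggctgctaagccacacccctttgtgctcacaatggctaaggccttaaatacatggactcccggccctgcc
Tnp2: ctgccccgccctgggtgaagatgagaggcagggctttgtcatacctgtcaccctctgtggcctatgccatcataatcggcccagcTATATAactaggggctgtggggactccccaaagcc
Hils1: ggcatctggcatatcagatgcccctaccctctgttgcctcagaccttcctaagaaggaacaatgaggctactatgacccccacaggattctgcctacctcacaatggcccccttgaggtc
H1fnt: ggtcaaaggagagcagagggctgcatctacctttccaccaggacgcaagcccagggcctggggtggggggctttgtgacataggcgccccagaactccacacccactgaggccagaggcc

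In mm9 the printed bases are chr16:10796917-10797036 for Prm1, chr16:10792199-10792318 for Prm2, chr16:10791008-10791127 for Prm3, chr1:73062474-73062593 for Tnp1, chr16:10788749-10788868 for Tnp2, chr11:94828787-94828906 for Hils1 and chr15:98087739-98087858 for H1fnt. The RefSeq start of Prm1, at 10796916, lies within the gene as the deposited annotation gives it. The 4 motifs first chosen were searched on both strands of the 300-base windows. TGACGTCA, the full site of cAMP-responsive factors such as CREM, was in 0 of 7 windows and in 1.79% of all 32817 RefSeq windows. Its first letters, TGACG, were in the window of H1fnt (20.8% of all windows), TATAAA in that of Prm2 (13.6%), and CCAAT in those of Prm3 and Hils1 (37.4%).

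After the windows had been read, 2 looser patterns were added. TGANNTCA was present in the windows of 4 genes, Prm1, Prm3, Tnp1 and Hils1, beside 14.1% of all windows. Its first base lay 64 bases before the start in Prm1, 60 in Prm3 and 94 in Tnp1, and in Hils1 it ran across the start and is not shown. TATA between 20 and 40 bases before the start was present in 3 genes, Prm1, Prm2 and Tnp2, and in 5.81% of all windows. Each of the 3 lies in the chromosome 16 cluster. These matches describe letters only, and no binding was measured.

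The protamine transcripts had no read counted at PND 7 and were abundant at the end. Prm1 had 0 and 0 counts in the PND 7 mice, 479 and 8 at PND 14, 20 and 4 at PND 17, 24 and 38 at PND 21, and 8530 and 6014 at PND 28. Per length, this was 133 and 2.46 RPKM at PND 14, 3.25 and 2.19 at PND 17, 12.9 and 13.2 at PND 21 and 2088 and 2532 at PND 28. Both PND 28 mice lay above every younger mouse, both PND 21 mice lay above both PND 17 mice, and the PND 14 mice lay on either side of PND 21. How many of all genes have ages set apart in this way was not counted, here or for the genes that follow.

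Prm2, whose protein is made as a precursor and then cleaved, took the same course at a lower level. Its RPKM was 59.2 and 1.40 at PND 14, 1.23 and 0.420 at PND 17, 5.72 and 3.16 at PND 21 and 542 and 599 at PND 28, with 0 counts at PND 7. The counts behind the middle ages were small, with 10 and 1 at PND 17 and 14 and 12 at PND 21. The groups at PND 17 and PND 21 did not overlap.

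Prm3, an acidic protein of the same gene cluster that does not act as a DNA-binding protamine, was the lowest of the chromosome 16 genes at PND 28. It had 13 and 0 counts at PND 14, 1 and 0 at PND 17, 14 and 11 at PND 21 and 230 and 165 at PND 28, and 0 in both PND 7 mice. In RPKM it stood at 8.68 and 4.39 at PND 21 and at 64.9 and 80.0 at PND 28. At PND 21 it was thus between the levels of Prm1 and Prm2 per length, although at PND 28 Prm1 was more than an order of magnitude above it.

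Tnp1, which replaces histones before protamine is laid down, was the only one of the 7 with any read at PND 7. PND 7 mouse 1 had 6 counts of it, 0.601 CPM, and mouse 2 had 0. Its RPKM was 158 and 5.17 at PND 14, 5.83 and 5.53 at PND 17, 27.8 and 25.3 at PND 21 and 3238 and 4380 at PND 28. The PND 17 mice were close to each other and to PND 14 mouse 2, and the PND 21 mice lay above them.

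Tnp2, the second transition protein, had 0 counts at PND 7 and RPKM values of 76.8 and 6.03 at PND 14, 6.38 and 7.49 at PND 17, 15.2 and 23.1 at PND 21 and 2314 and 2645 at PND 28. It was the highest of the 7 genes in PND 14 mouse 2 and in both PND 17 mice, with 23, 46 and 16 counts. At PND 28 it was below Tnp1 in both mice.

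The linker histones differed in course. Hils1 was the further ahead by PND 21, with RPKM values of 1.72 and 1.29 at PND 17, 53.0 and 47.8 at PND 21 and 630 and 605 at PND 28, and with 16.9 and 1.27 at PND 14 and 0 counts at PND 7. H1fnt had 0.290 and 0.580 RPKM at PND 17, 4.95 and 3.43 at PND 21, 198 and 214 at PND 28, and 7.19 and 0.110 at PND 14. For both genes PND 17, PND 21 and PND 28 did not overlap, an order whose share over all genes was not counted. PND 14 mouse 1 lay between PND 17 and PND 21 for Hils1 but above PND 21 for H1fnt.

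**Figure D1:**
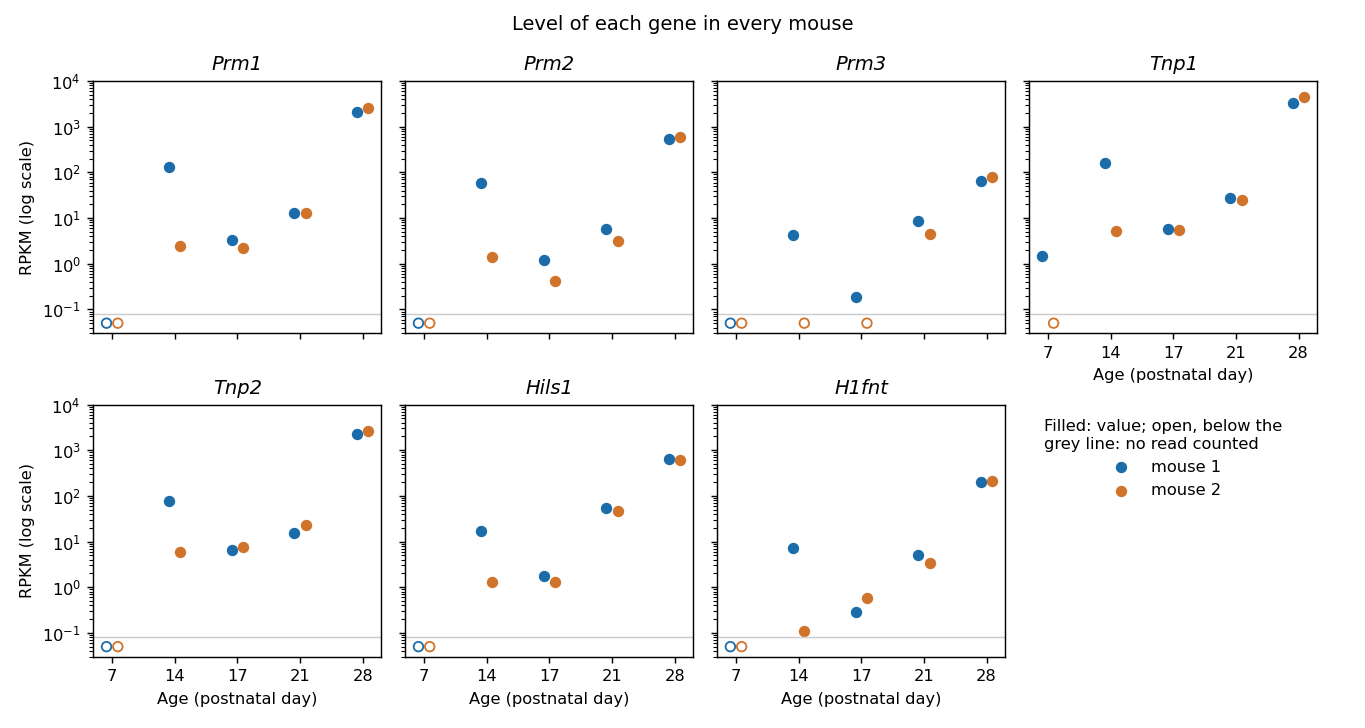
RPKM (log scale) of each gene by age, 1 point per mouse and 2 mice per age, with an open symbol under the grey line where no read was counted. The PND 28 mice lie at the top in every panel, and PND 14 mouse 1 lies above both PND 17 mice in every panel.

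At PND 28 the order of the 7 genes by RPKM was the same in both mice: Tnp1, Tnp2, Prm1, Hils1, Prm2, H1fnt and Prm3. Their counts made up 0.466% of all counts in PND 28 mouse 1 (95% Wilson interval 0.462% to 0.471%) and 0.554% in mouse 2 (0.548% to 0.561%), beside 0.00806% and 0.00742% in the PND 21 mice. Among 22380 protein-coding genes ranked by mean RPKM at PND 28, Tnp1 was in place 1, Tnp2 in place 3 and Prm1 in place 4. Hils1 and Prm2 were in places 22 and 25, H1fnt in place 166 and Prm3 in place 809. Neighbours in this order were not always apart. The RPKM values of Tnp2 and Prm1 overlapped, 2314 and 2645 beside 2088 and 2532, and those of Hils1 and Prm2 came close without overlapping, 630 and 605 beside 542 and 599.

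One week earlier the order was different. In both PND 21 mice Hils1 was the highest, followed by Tnp1, Tnp2 and Prm1, and its place among protein-coding genes was 822, beside 1938 for Tnp1 and 4008 for Prm1. Set against its own PND 28 mean, Hils1 was at 6.88% and 7.06% in the PND 21 mice and Prm3 at 9.62% and 5.54%. H1fnt was at 1.93% and 1.52%. The remaining 4 genes were all under 1%: Prm1 at 0.449% and 0.521%, Prm2 at 0.805% and 0.505%, Tnp1 at 0.586% and 0.607% and Tnp2 at 0.491% and 0.851%. The 7 genes thus fell into 3 non-overlapping ranges at this age, which were named after the values were seen.

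**Figure D2:**
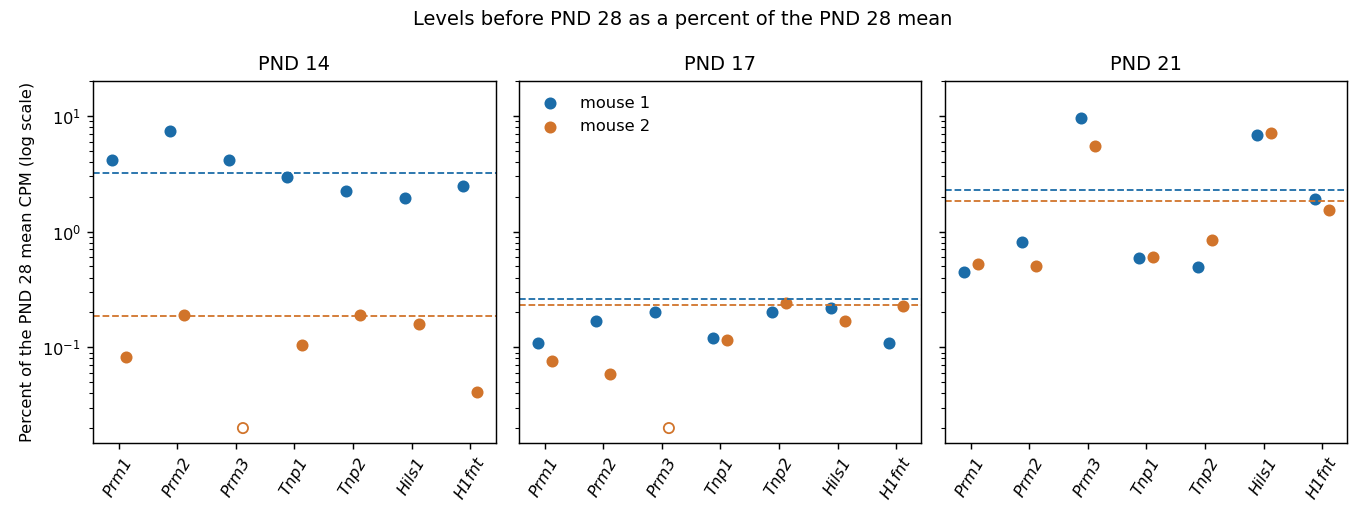
CPM of each gene at PND 14, 17 and 21 as a percent of its PND 28 mean (log scale), 1 point per mouse, with open symbols at the bottom for 0 counts and dashed lines for the median of the 84 other late genes in the mouse of that colour. At PND 21 Hils1 and Prm3 lie between 5.54% and 9.62%, and Prm1, Prm2, Tnp1 and Tnp2 lie below 1%.

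Ratios within a mouse do not depend on the scaling of libraries. The ratio of Hils1 to Prm1 in RPKM was 4.10 and 3.63 at PND 21 but 0.302 and 0.239 at PND 28, with 95% counting intervals of 2.66 to 6.58, 2.57 to 5.26, 0.291 to 0.313 and 0.228 to 0.250. In PND 14 mouse 1 it was 0.127 (0.101 to 0.157), which lay below the intervals of all PND 21 and PND 28 mice. Prm3 to Prm1 followed the same course, with 0.672 and 0.334 at PND 21 and 0.0311 and 0.0316 at PND 28, and in PND 14 mouse 1 it was 0.0313 (0.0165 to 0.0540). In these ratios PND 14 mouse 1 lay at or beyond the PND 28 mice and not near the PND 21 mice.

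Within each pair of related proteins the ratio moved less. Prm2 to Prm1 was 0.259 and 0.237 at PND 28 and 0.443 and 0.240 at PND 21, where the counting intervals of 0.212 to 0.891 and 0.114 to 0.468 took in the PND 28 values. PND 14 mouse 1 had a ratio of 0.444 (0.381 to 0.515), above both PND 28 mice. Tnp2 to Tnp1 was 0.715 and 0.604 at PND 28, 0.546 and 0.914 at PND 21 and 1.09 and 1.35 at PND 17. Hils1 to H1fnt was 10.7 and 13.9 at PND 21 and 3.19 and 2.83 at PND 28.

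**Figure D3:**
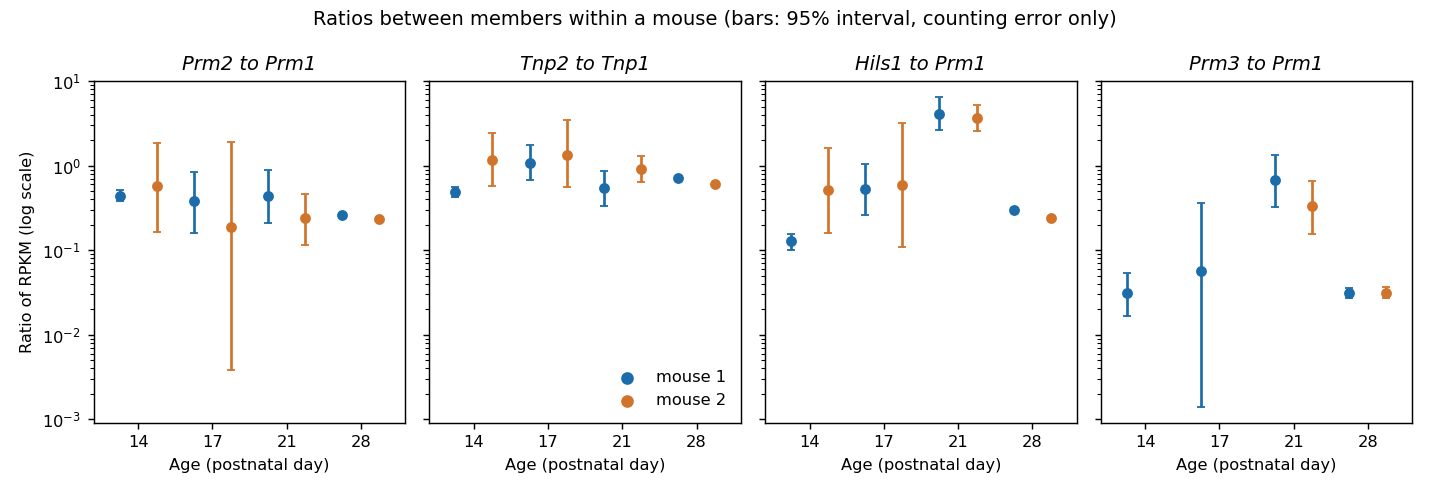
Ratios of RPKM between genes within each mouse (log scale) by age, with bars for the 95% interval from counting error only and no point where either gene had 0 counts. Hils1 to Prm1 and Prm3 to Prm1 peak at PND 21, while Prm2 to Prm1 and Tnp2 to Tnp1 stay within a narrower range.

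Consecutive ages were then compared in order, the question of the series being which genes change as each germ cell stage appears. Each comparison used edgeR's quasi-likelihood test on a fit of all 10 mice, and a gene was called at a Benjamini-Hochberg adjusted p under 0.05 over all genes tested and at least a 2-fold change. Neighbouring comparisons share the mice of an age. With 2 mice against 2, an exact permutation test cannot go below p = 0.333, so the calls rest on the spread shared over genes.

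Between PND 7 and PND 14, 6 of the 7 genes were called higher, beside 13.5% of all genes tested. The exception was Prm3, with 0 counts at PND 7 and 13 in PND 14 mouse 1 alone (adjusted p = 0.0673). Only 2 of the 7 passed the filter when just the PND 7 and PND 14 mice were fitted, and both were called higher. The other genes were thus tested here because of their counts at later ages. A fold change against PND 7 is a lower bound for the genes without a read there. Against a floor of 3 counts over both mice, the PND 14 mean of Prm1 was at least 156-fold higher, that of Tnp2 at least 112-fold, of Prm2 at least 91.8-fold, of Hils1 at least 35.6-fold and of H1fnt at least 23.7-fold. With PND 14 mouse 2 alone these bounds were 6.11-fold for Prm1, 17.6-fold for Tnp2, 4.58-fold for Prm2 and 5.35-fold for Hils1, and H1fnt, at 1 count, was under the floor. Tnp1 was higher by 6.35 on the log2 scale (SE 1.38, adjusted p = 0.00863).

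These rises were carried mainly by PND 14 mouse 1. Without it, 5 genes were called, beside 11.6% of genes, and H1fnt, left with 1 count, was not (adjusted p = 0.282). The fitted change of Tnp1 was then 2.45 (SE 0.76, adjusted p = 0.0497). PND 14 mouse 2 alone had 8 counts of Prm1, 6 of Prm2, 15 of Tnp1, 23 of Tnp2 and 7 of Hils1, so that these 5 genes were counted at PND 14 also without mouse 1. Without PND 7 mouse 2, 3 genes were called, beside 9.01% of genes.

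Between PND 14 and PND 17 no gene was called in either direction, beside 0% of all genes (769 of 16860 genes had an unadjusted p under 0.05). The fitted changes of the 7 genes were all negative, from -2.40 for Hils1 to -4.75 for Prm2, each with an adjusted p of 1 and an unadjusted p between 0.00462 and 0.0427. DESeq2 also called none of the 7. Without PND 14 mouse 1 the values lay between -0.43 for Prm2 and 2.02 for Prm3, and again 0% of genes were called. Without PND 14 mouse 2, 6 of the 7 were called lower at PND 17, beside 0.934% of genes.

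Between PND 17 and PND 21, 2 of the 7 genes were called higher, beside 9.29% of all genes. Hils1 rose by 5.09 on the log2 scale (SE 0.83, adjusted p = 0.00583), and its summed counts gave a ratio of 34.0 (95% counting interval 22.1 to 54.8). Prm3 rose by 5.21 (SE 1.33, adjusted p = 0.0332), which rests on 1 count at PND 17 and 25 at PND 21 and gives a ratio between 7.63 and 1913. The other 5 had values of 3.58 for H1fnt (adjusted p = 0.0827), 2.33 for Tnp1 (0.202), 2.28 for Prm1 (0.305), 2.17 for Prm2 (0.407) and 1.65 for Tnp2 (0.252). In each of these 5 the PND 21 mice lay above the PND 17 mice, an order whose share over all genes was not counted. With 2 mice against 2, the smallest exact permutation p is 0.333, so the order alone is weak evidence.

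These calls differed when a mouse of neither age was left out. The fit estimates a single spread per gene over all ages. The dispersion, another edgeR measure of spread per gene, is not itself used by the quasi-likelihood test. It was 0.178 to 0.479 for these genes with all mice, beside a median of 0.0661 over all genes. Leaving out PND 14 mouse 1, it was 0.0276 to 0.0753 for these genes. Whether this spread accounts for the change in calls was not tested. Without that mouse all 7 genes were called higher, beside 9.80% of genes. The fitted changes hardly moved: 5.10 for Hils1 (adjusted p = 1.78e-05), 5.21 for Prm3 (0.00347), 3.59 for H1fnt (0.000661), 2.34 for Tnp1 (0.00496), 2.29 for Prm1 (0.00236), 2.17 for Prm2 (0.0177) and 1.67 for Tnp2 (0.00997). All 7 were also called without PND 14 mouse 2, beside 9.77% of genes. Leaving out PND 17 mouse 1 or mouse 2 gave 0 calls in edgeR, beside 3.11% and 1.42% of genes. Leaving out a PND 21 mouse gave 1 call, beside 2.71% of genes without mouse 1 and 7.85% without mouse 2, and leaving out a PND 28 mouse also gave 1, beside 5.92% and 6.13%.

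Between PND 21 and PND 28 all 7 genes were called higher, beside 7.37% of all genes. Prm1 rose by 7.68 (SE 1.28, adjusted p = 0.00525), Tnp1 by 7.39 (SE 1.15, adjusted p = 0.00334), Prm2 by 7.28 (SE 1.19, adjusted p = 0.00495) and Tnp2 by 7.20 (SE 0.94, adjusted p = 0.00194). H1fnt rose by 5.86 (SE 0.87), Hils1 by 3.84 (SE 0.66) and Prm3 by 3.74 (SE 0.76), with adjusted p between 0.00335 and 0.0145. In summed counts, these were ratios of 199 for Prm1 (155 to 260), 161 for Tnp1 (134 to 196), 157 for Prm2 (107 to 240), 141 for Tnp2 (117 to 171), 58.5 for H1fnt (44.7 to 78.0), 14.4 for Hils1 (13.0 to 16) and 13.4 for Prm3 (8.96 to 21.0). The same 7 were called without PND 14 mouse 1, beside 7.40% of genes. Without PND 21 mouse 1 there were 2 calls, beside 2.46% of genes, and without PND 21 mouse 2 there was 1, beside 1.64%. The changes themselves moved little when any mouse was left out, from 7.54 to 7.79 for Prm1, from 7.17 to 7.57 for Tnp1 and from 3.79 to 3.88 for Hils1, and most for Prm3, from 3.36 to 4.17.

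Over the whole span from PND 7 to PND 28, all 7 genes were called higher, beside 32.2% of all genes, and all 7 also without PND 14 mouse 1, beside 31.0%. The PND 28 mean was at least 9313-fold above the PND 7 floor for Tnp2, at least 7410-fold for Prm1, at least 3364-fold for Hils1, at least 2412-fold for Prm2, at least 1868-fold for H1fnt and at least 202-fold for Prm3. Tnp1, with 6 counts at PND 7, gave a ratio of 5243 (2409 to 14290).

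Whether the last step was larger than the one before it was tested gene by gene, as the change from PND 21 to PND 28 minus that from PND 17 to PND 21. With all mice none of the 7 was called in the difference, beside 0.0356% of all genes with a larger last step. At an unadjusted p under 0.05 there were 3, beside 1489 of 16860 genes, and DESeq2 called none. The 3 were Tnp2 with 5.55 (SE 1.54), Prm1 with 5.40 (SE 2.23) and Tnp1 with 5.06 (SE 1.89). Without PND 14 mouse 1, 4 genes had a larger last step, beside 0.156% of genes: Tnp2 with 5.53 (SE 0.57, adjusted p = 0.00749), Prm1 with 5.39 (SE 0.55, adjusted p = 0.00749), Prm2 with 5.11 (SE 0.77, adjusted p = 0.0321) and Tnp1 with 5.05 (SE 0.69, adjusted p = 0.0215). H1fnt had 2.27 (adjusted p = 0.304), and the values of Hils1, -1.25 (adjusted p = 0.364), and Prm3, -1.47 (adjusted p = 0.742), were on the other side of 0. Without PND 14 mouse 2 there were also 4 calls, again beside 0.156% of genes. The 4 genes called without mouse 1 are those under 1% of their PND 28 level at PND 21. The 2 steps share the PND 21 mice, so a low PND 21 value lowers the one and raises the other.

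**Figure D4:**
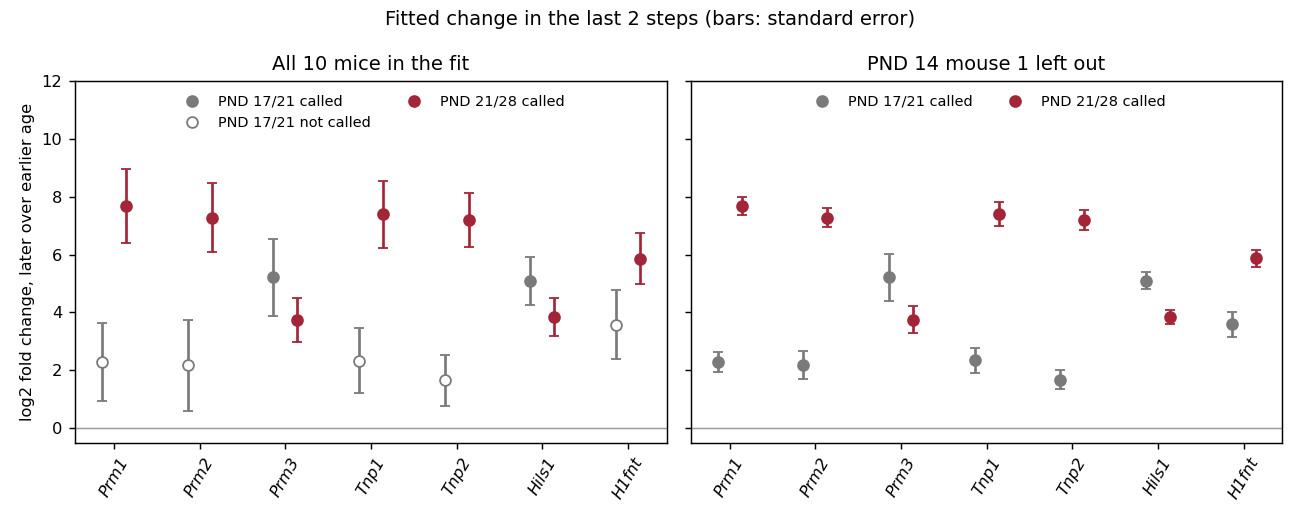
Fitted log2 fold change of each gene from PND 17 to PND 21 (grey) and from PND 21 to PND 28 (red), with bars for the standard error as derived from the F statistic, filled where called, with all 10 mice (left) and without PND 14 mouse 1 (right). The points stay in place and the bars shrink when that mouse is left out, and in Hils1 and Prm3 the earlier step is the higher point.

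Genes known to act around these 7 were followed in lists drawn up from general knowledge, but with earlier results of these data known. Of 9 factors in the transcription of spermatid genes, 6 were called higher at PND 7/14, 5 at PND 17/21 and 3 at PND 21/28. Counts of this and the following lists stand beside 13.5%, 9.29% and 7.37% of all genes called higher in these 3 comparisons. Crem, the cAMP-responsive activator of post-meiotic genes, was already counted at PND 7, with 11.9 and 8.73 CPM, and had 139 and 188 CPM at PND 21 and 456 and 375 at PND 28. Its rise at PND 21/28 was 1.35 (SE 0.26, adjusted p = 0.00947). Its coactivator Fhl5, also called ACT, had 1.1 and 0 CPM at PND 7, 5.72 and 0.657 CPM at PND 14, 10.7 and 9.61 CPM at PND 21 and 192 and 291 at PND 28, and rose by 3.04 at PND 17/21 (adjusted p = 0.0377) and by 4.57 at PND 21/28 (adjusted p = 0.00285). Kif17, a kinesin that moves this coactivator out of the nucleus, rose by 3.44 (adjusted p = 0.0112) and 2.57 (adjusted p = 0.0221) in the same comparisons. Rfx2, a regulator of spermatid differentiation, rose by 1.76 at PND 17/21 (adjusted p = 0.0393). At PND 14 Crem had 52.8 and 76.8 CPM and Rfx2 37.1 and 33.5 CPM, whereas Kif17 had 10.2 and 1.97 CPM.

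The list of 13 genes for mRNA storage and translation had 8 genes called higher at PND 7/14, 5 at PND 17/21 and 0 at PND 21/28. Ybx2 and Csda, Y-box proteins that hold protamine mRNA back from translation, stood at 386 and 710 CPM and at 812 and 773 CPM at PND 21, when Prm1 had 5.73 and 6.64 CPM. At PND 17/21 Papolb, a cytoplasmic poly(A) polymerase of spermatids, rose by 2.40 (adjusted p = 0.0163), Pabpc2, a testis poly(A)-binding protein, by 2.21 (adjusted p = 0.00463) and Csda by 1.31 (adjusted p = 0.0202). The median change of the list at PND 21/28 was 0.50, beside 7.20 for the 7 genes and 0.03 for all genes tested. At PND 21/28, 4021 of 16860 genes tested had an unadjusted p under 0.05 in edgeR, a share that also stands beside the later lists. Of the 13 storage genes, 7 had such a p, and DESeq2 called 2. In edgeR 9 were called at PND 7/14 and 1 at PND 21/28 when PND 14 mouse 1 was left out.

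Of 13 genes for histone removal and protamine handling, 3 were called higher and 1 lower at PND 7/14, 4 higher at PND 17/21 and 1 at PND 21/28. In the last step 10 of the 13 had an unadjusted p under 0.05, DESeq2 called 3, and edgeR called 2 without PND 14 mouse 1. Chd5, a chromatin remodeller of spermatids, rose by 3.34 at PND 17/21 (adjusted p = 0.0178), although its PND 21 mice were far apart at 42.2 and 11.4 CPM. Dot1l, the H3K79 methyltransferase, rose by 1.92 (adjusted p = 0.0305), with PND 21 mice at 145 and 45.4 CPM. Cdyl was the one called at PND 21/28, with 2.88 (SE 0.25, adjusted p = 0.000198). Camk4, a kinase of the Prm2 protein, had 3.34 and 4.54 CPM at PND 21 and 37.1 and 39.0 CPM at PND 28 (adjusted p = 0.0557).

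The 12 histone variants of the testis had 5 genes called higher at PND 7/14 and 0 in each later step by edgeR and by DESeq2. The medians of those steps were -0.12, -0.02 and -0.05. In edgeR 0, 2 and 1 of the 12 had an unadjusted p under 0.05, beside 769, 4758 and 4021 of 16860 genes. When PND 14 mouse 1 was left out, 6 were called higher at PND 7/14. Hist1h1t, the linker histone of spermatocytes, had 11.5 and 10.6 CPM at PND 7 and 256 and 421 at PND 14. It had 310 and 707 CPM at PND 21 and 503 and 419 at PND 28. At PND 14, mouse 2 thus lay among the PND 21 and PND 28 values of Hist1h1t and mouse 1 below them. The spermatid linker histone Hils1 then had 11.3 and 0.920 CPM and H1fnt 8.03 and 0.131 CPM.

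The 11 genes of late spermatid structure, such as the outer dense fiber protein Odf1 and the fibrous sheath protein Akap4, had 10 genes called higher at PND 7/14, 8 at PND 17/21 and 9 at PND 21/28. Without PND 14 mouse 1 these numbers were 7, 10 and 10. Odf1 had 18.9 and 1.71 CPM at PND 14 and 44.6 and 33.4 at PND 21, and Akap4 61.0 and 3.02 CPM and 121 and 91.4 CPM. Odf1 rose by 5.01 and 3.95 in the last 2 steps, close to the pattern of Hils1. Tssk6, a kinase of the testis, and Spem1, a spermatid protein, rose mostly in the last step, by 6.66 (adjusted p = 0.00158) and 6.39 (adjusted p = 0.00228), as Prm1 and Tnp1 did.

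**Figure D5:**
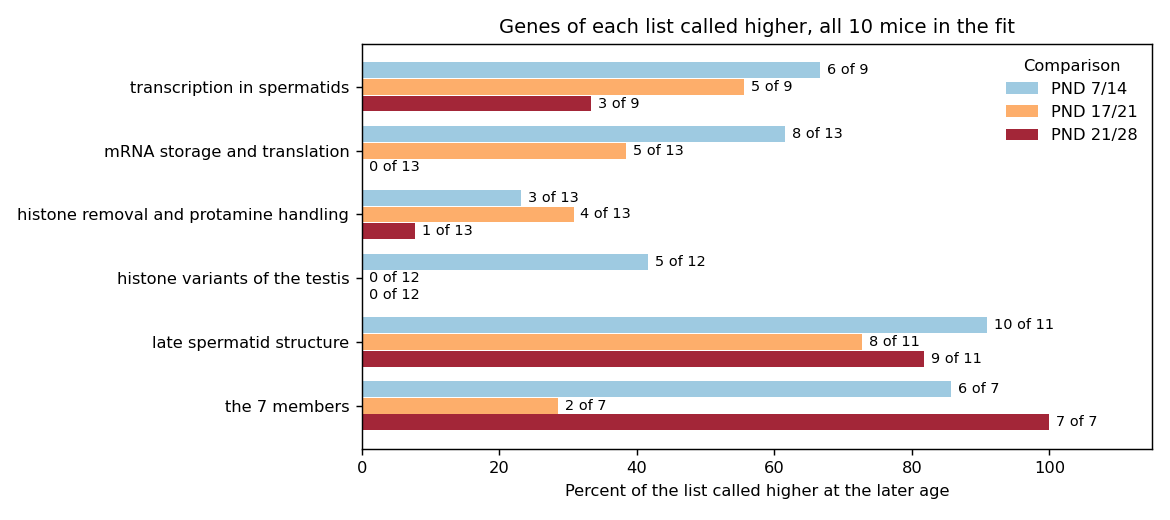
Percent of each list called higher at the later age in 3 consecutive comparisons with all 10 mice, with the number of genes called and tested beside each bar. At PND 21/28 the 7 genes and the late structural genes have calls in most members, and 0 of 13 storage genes and 0 of 12 histone variants are called, beside 7.37% of all genes.

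Markers of round spermatids rose as well. All 8 were called higher at PND 17/21, 6 of them at PND 7/14 and 6 at PND 21/28. With PND 14 mouse 1 left out, the numbers for PND 7/14 and PND 21/28 were 4 and 7. Tssk2, a spermatid kinase, rose by 6.39 and 3.92 in the last 2 steps and Spaca3, an acrosomal protein, by 6.22 and 2.70. The median marker change fell from 4.92 to 2.64, while the median of the 7 genes went from 2.33 to 7.20. Hils1 (5.09 and then 3.84) and Prm3 (5.21 and then 3.74) had the larger change first, as the marker median did. With all mice, 0 of the 8 markers and 0 of the 7 genes were called in the difference of the steps. Of all genes, 0.0356% were called with a larger last step. Whether the timing of the 7 genes differs from that of the markers was not tested. Leydig cell markers also rose at PND 21/28, with 3 of 7 called, among them Cyp17a1, an enzyme of androgen synthesis, by 2.35. Of 9 Sertoli markers 0 were called at PND 21/28 by edgeR or DESeq2, with a median of -0.47. In edgeR 3 had an unadjusted p under 0.05, beside 4021 of 16860 genes tested. The part of changing cell numbers in the rises of the 7 genes was not tested.

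For each of the 7 genes, the 3 most similar other genes were taken by Pearson correlation of log2 CPM over the 10 mice, among 10358 genes whose mean CPM was 10 or more, Prm3 itself being below that mean. The Rik gene 4931407G18Rik was among the 3 for Prm1 (r = 0.994), Tnp1 (0.993) and Tnp2 (0.990), and Spem1 for the same genes (0.992, 0.992 and 0.990). For Hils1 the 3 were 1700061J05Rik (0.999), Spata19 (0.998) and Nt5c1b (0.998), for H1fnt Iqcf1 (0.996), Fam166a and 1700001K19Rik, and for Prm3 Gm15756 (0.998), Cct8l1 and Gm11780. For Prm2 they were 4933402P03Rik (0.988), 4933407P14Rik and Ubqlnl. Among the 7 themselves, Prm1 was nearest to Prm2 (0.995), and Hils1 was nearest to Prm3 (0.973). Spata19 had 35.3 and 28.8 CPM at PND 21 and 412 and 462 at PND 28, and Spem1 had 3.34 and 3.32 and then 249 and 312. The points share the rise with age, so that correlations are high throughout, and without PND 14 mouse 1 the choice kept 8 of 21 genes.

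Within 100 kb of the 7 genes lay 24 other annotated genes, of which 13 were tested. In PND 21/28, 2 of these were called higher, Asb8 by 1.41 and AI836003 by 1.84, both beside H1fnt, and in PND 17/21 also 2, AI836003 by 2.32 and Pdk2 by 2.08. In each comparison this was 15.4% of the neighbours tested, beside 7.37% of all genes in the later and 9.29% in the earlier one. Socs1, which lies 2400 bases from Tnp2, had a mean of 1.34 CPM at PND 21 and 1.44 at PND 28, and Clec16a had 40.5 and 41.8. Gm10343, 4483 bases from Prm1, had 0.326 and 0.551 CPM, close to the limit of detection. Beside Hils1, Sgca changed by 0.48 and Pdk2 by 0.95 at PND 21/28, and neither was called. Tnp1 had no annotated gene within 100 kb.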

How the data were processed

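Per the labels and the study's methods, RNA of whole testes, freed of ribosomal RNA, was read on the SOLiD platform and mapped to mm9 with LifeScope, and reads with many alignments were dropped. For every Ensembl gene and library the authors deposited a count of uniquely mapped reads, an RPKM (the count scaled by exon length and library size) and the number of exons with more than 10 reads. Counting only unique reads can understate genes with near copies, and the use of strand is not given in the sources used here.

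Symbols came from GENCODE M1 and were found for 37310 of 37675 genes. The counts of the 2 barcodes of each PND 7 mouse were summed and their RPKM values averaged. Counts were fitted with edgeR 4.0.16 in R 4.3.3 (filterByExpr, TMM, quasi-likelihood F-tests over all 10 mice), and p-values were Benjamini-Hochberg adjusted over all 16860 genes tested, not over the members. log2 fold changes are the later over the earlier age. Each SE is the absolute log2 fold change divided by the square root of the F statistic, so it is derived from the test and not estimated separately. Log2 CPM values used a prior count of 2. Where an age had 0 counts, a fold is a bound against 3 counts over both mice. Ratios carry 95% Clopper-Pearson counting intervals. DESeq2 1.42.0 and limma 3.58.1 on log2(RPKM + 1), with an unadjusted p of at most 0.01, a 2-fold change and 10 RPKM between means, were alternatives. Tables and figures used Python 3.11.15.

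The 7 members, the 5 gene lists and the 8 marker lists were chosen with earlier results of these data known. Of the lists, named genes are the 3 with the largest called changes in PND 17/21 or PND 21/28. Crem, Ybx2, Camk4, Hist1h1t, Akap4, Sox9 and Amh were named besides. Of the markers, Rhox5 was not found. Nothing says that the mice of an age came from separate litters, so p-values measure only the spread between these mice. Promoter windows are RefSeq's (GRCm38.p6), matched to mm9 by sequence. In a test on simulated data, 200 genes of 16860 were changed 4-fold. Of these, edgeR called 168 to 181 in the 4 consecutive comparisons, beside 5 to 8 genes that had not been changed. These numbers are for the changed genes as a whole. How often edgeR calls genes with the dispersions (0.178 to 0.479) and low early counts of the 7 was not tested.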

Additional observations from a re-analysis of the deposited data

How the results depend on the processing

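With all 10 mice, 6, 0, 2, 7 and 7 of the 7 genes were called in PND 7/14, 14/17, 17/21, 21/28 and 7/28, and 0 in the difference of the last steps. These counts did not move by over 1.5 times under RLE scaling, library totals, a minimum of 10 counts in 2 mice, separate PND 7 barcodes or the removal of small structural and mitochondrial RNAs, nor did the 5 counts of the comparisons with no minimum fold change. Scaling moved the median log2 fold change of all genes in PND 7/28 from 0.10 to 0.27 with RLE and to -0.22 with library totals. Mouse numbers are shared between ages but name different animals. Deviations of same-numbered mice correlated between -0.17 and 0.34 over pairs of ages. With the mouse number as a block (pairing by number) the counts were 6, 0, 2, 7, 7 and 0. Beside these, 2164, 0, 1411, 1090, 5391 and 0 of 16860 genes were called higher. With no filter on low counts, 6 genes were called lower in PND 14/17, beside 209 of 26788 genes. In the same setting 7 were called higher in PND 17/21 (1991 of all genes) and 4 had a larger last step (133 of all genes). With only the mice compared, 2 of the 2 genes that passed the filter were called higher in PND 7/14, beside 1430 of 14804 genes. In PND 17/21 these were 5 of 5, beside 1670 of 14259 genes. In the difference of the steps they were 4 of 7, beside 67 of 15497 genes. DESeq2 called 1 gene in PND 17/21, beside 2072 of 16920 genes called higher. With limma on log2(RPKM + 1), 1 was called in PND 7/14 and 1 in PND 17/21, beside 861 and 639 of 26788 genes called higher. A pseudocount of 0.1 also gave 1 in PND 17/21, beside 461 genes. Leaving out each mouse in turn gave 3 to 7 calls in PND 7/14, 0 to 6 in PND 14/17, 0 to 7 in PND 17/21, 1 to 7 in PND 21/28, 7 in PND 7/28 and 0 to 4 in the difference of the steps. The cause was not tested. Settings chosen after seeing the data left out PND 14 mouse 1 in DESeq2 and limma as well, and their PND 14/17 values are given below.

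Of 934 values of single genes under an alternative, 806 kept their direction and their side of the threshold, 3 were at 0.00 (Prm3 in PND 7/14 without PND 14 mouse 1, where no count was left), 46 were no longer called, 61 became called and 18 reversed. All 18 reversals were in PND 14/17 without PND 14 mouse 1. In edgeR the values there were 0.27 for Prm1, 2.02 for Prm3, 0.17 for Tnp1, 0.19 for Tnp2, 0.35 for Hils1 and 1.63 for H1fnt, in DESeq2 0.30, 1.32, 0.19, 0.21, 0.38 and 1.78, and in limma 0.09, 0.13, 0.11, 0.17, 0.14 and 0.36. Over all mice left out in turn, the lowest PND 14/17 values of these genes in edgeR were -5.37 for Prm1, -5.37 for Prm3, -4.65 for Tnp1, -3.38 for Tnp2, -3.27 for Hils1 and -4.14 for H1fnt. Over the gene lists, 33, 0, 22, 13 and 43 of 58 genes were called in the 5 comparisons and 0 in the difference of the steps, where DESeq2 called 1 and edgeR without PND 14 mouse 1 called 2. Of the list genes called with all mice, 1 was lower in PND 7/14 and 3 in PND 7/28, and the rest were higher. Of all genes tested, 13.5%, 0%, 9.29%, 7.37% and 32.2% were called higher in these 5 comparisons. Of the 21 genes most like the members, 9 remained with log2(RPKM + 1). At PND 17 the 7 genes rest on 132 and 37 counts in all, and in PND 14 mouse 2 on 60.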

Other observations

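The epididymal marker Crisp1 was counted at 62.6 CPM in PND 7 mouse 2 and at 169 CPM in PND 17 mouse 1, and at 1.18 CPM or less in the other 8 mice. Lcn5, another epididymal gene, had 4.11 CPM in PND 17 mouse 1 and 0.273 CPM or less elsewhere, with 0 in PND 7 mouse 2. The other 2 listed markers did not follow this. Cst8 had 3.35 and 3.39 CPM in the PND 17 mice and was highest at PND 28, with 150 and 202 CPM. In PND 7 mice 1 and 2 it had 10.9 and 26.1 CPM. Defb41 was 0 in all PND 7 and PND 17 mice. The source of these reads was not tested. Tnp1 had 2.23 and 2.18 CPM in PND 17 mice 1 and 2.

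PND 14 mouse 1 had more of each of the 8 round spermatid markers than PND 14 mouse 2, although by little for Acr (12.1 and 11.3 CPM), which was counted in every PND 14 and PND 17 mouse. Pgk2, a glycolytic gene switched on in meiosis, had 28.3 and 23.8 CPM in the 2 PND 14 mice.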
